A study of Mus musculus with 2 samples.

Results

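Selenop, Hs3st3b1, Gramd3, Tbc1d4 and Asap1 are 5 of the 22686 genes listed in 2 single-cell RNA tables of mouse spleen T cells. They were chosen by 1 measured value, because their summed levels were higher in the library from LatY136F mice that also lack CD45 than in the library from LatY136F mice. That difference is therefore how the genes were chosen and is given as a description. The choice did not use the values within each library. They ask whether the same cells carry the transcripts of the 5 genes, and in which cell states they are found. These values are not fully independent of the choice, because the libraries differ in their mix of states. The gates were also chosen with earlier results of these data known.

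Both groups were mice of 8 to 9 weeks that carry LatY136F, a change of a tyrosine of the adaptor LAT that couples the T cell receptor to phospholipase C-gamma. The second group, LatY136FCD45-KO, in addition lacks CD45 (gene Ptprc), the receptor phosphatase that sets the activity of Src-family kinases, and is called CD45-KO here. No wild-type animals and no animals with the CD45 deletion alone are among the samples, so every value describes T cells on a LatY136F background. Spleen cells positive for CD3 and CD5 were sorted and captured in microwells (BD Rhapsody whole-transcriptome assay), and each genotype gave 1 library. Neither the number of mice per library nor the design of the CD45 allele was stated in the sources used here. With 1 library per genotype, a difference between the libraries cannot be told apart from a difference between mice or captures, and no test between genotypes was possible. All intervals below are 95% intervals of counting error only.

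The LatY136F table holds 13775 cells with 35300371 unique molecules (UMIs), and the CD45-KO table holds 12845 cells with 29268453 UMIs. After filtering and after removing 36 and 104 cells with markers of B, myeloid or dendritic cells, 13711 and 12730 T cells remained, with medians of 2153 and 1986 UMIs. All 8 T cell markers were found in both libraries, at a summed 5668 and 5191 counts per 1000000 UMIs (CPM). Markers of the B lineage summed to 3.88 and 4.48 CPM, those of red pulp macrophages to 8.58 and 7.52 CPM with C1qa at 0 in both, and those of NK cells to 53.6 and 75.0 CPM. Ptprc itself was read at 1759 CPM in LatY136F and 1180 CPM in CD45-KO cells, and because reads can come from outside a deleted stretch this does not check the label. The 2 tables share 223 cell index numbers, and without those cells the levels, pair ratios and gate ratios of the 5 genes named here stayed within their counting intervals.

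LAT with this substitution is known to give a lymphoproliferative disease in which T helper 2 (Th2) effector cells accumulate in spleen and lymph nodes. The 5 genes belong to different pathways. Selenop encodes a secreted selenoprotein that carries selenium between tissues, and the liver and tissue macrophages are well known sources of it. Hs3st3b1 encodes an enzyme of the Golgi that adds the 3-O-sulfate to heparan sulfate, the last and rarest of the modifications of that chain. Gramd3 (now also named Gramd2b) encodes a protein with a GRAM domain, a fold that binds membrane lipids. Tbc1d4, also called AS160, is a GTPase-activating protein for Rab proteins that holds glucose transporter vesicles inside the cell until kinases such as Akt phosphorylate it. Asap1 is a GTPase-activating protein for Arf GTPases and acts on membrane traffic, focal adhesions and cell movement.

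Because the 5 genes were picked together, the bases just before their starts are shown for the 3 of 5 genes with an entry in the promoter table of RefSeq (GRCm38.p6). They are printed 5′ to 3′ on the strand of the gene and hold no annotated exon base. The Selenop window precedes the start of a shorter transcript and lies in an intron of a longer one. The windows are chr15:3270517-3270766 (plus strand, 250 bases) for Selenop, chr11:63922291-63922534 (minus strand, 244 bases) for Hs3st3b1 and chr14:101609282-101609441 (minus strand, 160 bases) for Tbc1d4. Capitals mark matches, on either strand, to the NF-Y box or the GC box spelled out below the sequences.
Selenop: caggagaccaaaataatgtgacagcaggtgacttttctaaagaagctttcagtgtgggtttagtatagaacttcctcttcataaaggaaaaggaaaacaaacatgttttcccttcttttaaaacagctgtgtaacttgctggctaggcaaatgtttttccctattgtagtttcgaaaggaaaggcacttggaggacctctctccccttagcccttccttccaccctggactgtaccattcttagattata
Hs3st3b1: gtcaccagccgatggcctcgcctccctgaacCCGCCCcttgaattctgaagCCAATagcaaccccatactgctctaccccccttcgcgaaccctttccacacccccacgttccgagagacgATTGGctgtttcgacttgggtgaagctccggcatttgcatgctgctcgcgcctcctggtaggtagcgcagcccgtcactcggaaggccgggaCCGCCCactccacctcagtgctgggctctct
Tbc1d4: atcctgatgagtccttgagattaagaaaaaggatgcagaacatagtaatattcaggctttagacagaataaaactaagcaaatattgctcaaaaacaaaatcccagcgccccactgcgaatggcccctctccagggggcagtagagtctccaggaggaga
Short motifs were searched on both strands. The core bound by TCF and LEF factors was searched as CTTTGA, and the site of the AP-1 factors as TGANTCA. The site of ETS family factors was searched as CCGGAAG, and that of the FOXO family as GTAAACA. The box bound by the factor NF-Y was searched as CCAAT, the element known as the GC box as GGGCGG, and the core promoter element named TATA as TATAAA. In the Hs3st3b1 window the NF-Y box and the GC box each matched 2 times, without overlap. Of 32851 promoter windows cut to that length, 33.4% hold the NF-Y box and 31.9% hold the GC box. None of the letters searched is in the Selenop or the Tbc1d4 window, so the 3 windows share no match to these 7 motifs.

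In the GENCODE M21 annotation of GRCm38, all 5 are protein-coding genes on separate loci. Selenop (ENSMUSG00000064373.12) spans chr15:3268547-3280508 on the plus strand, and Asap1 (ENSMUSG00000022377.16) spans chr15:64086857-64382919 on the minus strand of the same chromosome. Hs3st3b1 (ENSMUSG00000070407.5) spans chr11:63885792-63922290 on the minus strand. Gramd3 (ENSMUSG00000001700.10) spans chr18:56400337-56503792 on the plus strand. Tbc1d4 (ENSMUSG00000033083.16) spans chr14:101442360-101609191 on the minus strand.

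Selenop was the member with the highest ratio between the libraries. Its level was 16.1 CPM (564 UMIs) in LatY136F and 65.3 CPM (1867 UMIs) in CD45-KO T cells, a log2 ratio of 2.02 (1.89 to 2.16). A Selenop UMI was found in 3.16% of LatY136F and 10.6% of CD45-KO cells. A positive cell held a mean of 1.30 and 1.38 UMIs, and no cell held more than 6. With counts this sparse, more positive cells and more transcript per cell cannot be told apart.

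Hs3st3b1 was the most widespread member. It stood at 89.4 CPM (3138 UMIs) in LatY136F and 235 CPM (6728 UMIs) in CD45-KO cells, a log2 ratio of 1.40 (1.33 to 1.46). Its UMIs were found in 17.8% and 35.9% of the cells, with means of 1.29 and 1.47 UMIs per positive cell. Gramd3, the least abundant member in CD45-KO cells, stood at 18.8 CPM (658 UMIs) and 51.6 CPM (1474 UMIs), a log2 ratio of 1.46 (1.33 to 1.59), in 4.02% and 9.35% of the cells.

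Tbc1d4 was distributed differently from the rest. Its level was 90.1 CPM (3160 UMIs) in LatY136F and 187 CPM (5351 UMIs) in CD45-KO cells, a log2 ratio of 1.06 (0.99 to 1.12), in 11.9% and 21.2% of the cells. A positive cell held a mean of 1.94 and 1.98 Tbc1d4 UMIs, and 127 LatY136F and 211 CD45-KO cells held 5 or more, up to 24 and 27. Cells with 5 or more UMIs numbered at most 15 in LatY136F and 44 in CD45-KO for each of the other members. Asap1 stood at 78.6 CPM (2757 UMIs) and 161 CPM (4615 UMIs), a log2 ratio of 1.04 (0.97 to 1.11), in 15.5% and 25.5% of the cells.

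All 5 genes were at least 1.5-fold higher in CD45-KO, as the choice required, as were 1.67% of the 7864 genes with at least 10 CPM in both libraries (131 genes). The median log2 ratio of those genes was 0.02, with the 5th to 95th percentile from -0.47 to 0.41. Ranked by the lower interval bound among 3688 genes with at least 50 CPM in 1 library, the members took ranks 2, 5, 6, 10 and 11. The ranks use the same contrast that chose the genes and are a description only. Selenop and Gramd3 reached 50 CPM in CD45-KO alone. This ranking leaves out receptor and immunoglobulin genes, unnamed and sex-linked genes, and genes of mitochondria, ribosomes and haemoglobin. Asap1, the lowest, stood just above Fosb, a gene outside the set with a log2 ratio of 1.01 at rank 12. With every cell thinned to 1000 UMIs, the shares of cells with a UMI were 1.66% and 6.05% for Selenop, 9.06% and 20.7% for Hs3st3b1, 2.0% (265 cells) and 4.98% for Gramd3, 6.45% and 12.3% for Tbc1d4, and 7.33% and 14.0% for Asap1 (13278 and 12373 cells deep enough). The order of the libraries was the same at equal depth for each gene. These are cells whose sums chose the genes, so this too is a description.

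**Figure D1:**
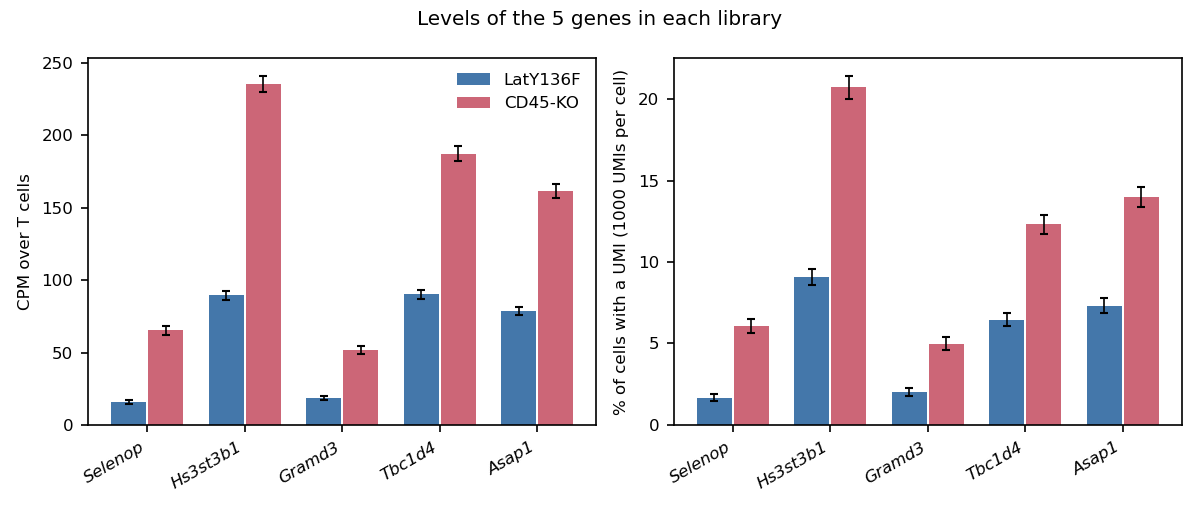
Levels of the 5 genes in the T cells of the LatY136F library (blue) and the CD45-KO library (red), as CPM of summed UMIs (left) and as the percent of cells with a UMI after every cell was thinned to 1000 UMIs (right). Bars are single libraries, error bars are 95% counting intervals, and CD45-KO is higher in every pair, from 2.06-fold for Asap1 to 4.06-fold for Selenop in CPM.

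Cells that are not T cells were few but held some of these transcripts. Among the removed cells, those with macrophage markers had Selenop in 7 of 12 LatY136F and 25 of 39 CD45-KO cells, at 273 and 437 CPM and median depths of 5902 and 5049 UMIs. They had Asap1 at 130 and 221 CPM, Tbc1d4 at 101 and 149, Gramd3 at 57.6 and 40.5 and Hs3st3b1 at 43.2 and 40.5 CPM. Besides Selenop, Asap1 was thus above its T cell level in both libraries, and Gramd3 and Tbc1d4 in LatY136F, from few cells. B-lineage cells, at median depths of 4442 and 7196 UMIs, had Selenop in 1 of 10 and 9 of 33 cells (50.02 and 40.8 CPM), Hs3st3b1 in 3 of 10 and 8 of 33 (83.4 and 57.1 CPM) and Gramd3 in 2 of 10 and 11 of 33 (33.4 and 65.3 CPM). Tbc1d4 stood at 200 and 53.0 CPM and Asap1 at 117 and 61.2 CPM in these cells. At these cell numbers the levels in T cells were not above those of B-lineage cells for Gramd3 in both libraries and for Selenop, Tbc1d4 and Asap1 in LatY136F. The part of free RNA or of T and B cell doublets in those counts was not tested. The lowest level among the T cell gates described below with at least 100 cells in both libraries was 6.14 CPM in LatY136F and 15.9 CPM in CD45-KO for Selenop and 25.3 and 44.0 CPM for Hs3st3b1, below the level over all T cells. The summed macrophage markers of the T cells were 8.58 and 7.52 CPM after cells with 3 or more UMIs of the non-T markers had been removed, and their part in the Selenop level was not tested.

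To place the genes in cell states, T cells were sorted on their own transcripts into 22 gates that can overlap. A naive-like gate held 1319 LatY136F and 2500 CD45-KO cells, an activated gate (genes such as Anxa2, Lgals3, Capg and Tnfrsf4) held 5514 and 1844, and a cycling gate held 1110 and 283. A T follicular helper (Tfh) gate held 208 and 288, a cytotoxic gate 107 and 177, and a gate on Ikzf2 without Foxp3 held 443 and 1258. The libraries thus differed in their mix of states, which bears on any level summed over all cells. With the mix over the patterns of these 6 gates held equal, the log2 ratio between libraries was 1.87 for Selenop, 1.18 for Hs3st3b1, 1.22 for Gramd3, 0.83 for Asap1 and 0.50 for Tbc1d4. For Tbc1d4 this is below 1.5-fold, the only member for which the equal mix ended that call. In the 6948 LatY136F and 7732 CD45-KO cells outside all 6 gates, the log2 ratio of Tbc1d4 was 0.99 (0.87 to 1.10), from 67.4 to 133 CPM, and those of the other 4 lay between 0.89 and 1.91.

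Of the gates, 20 held 100 cells or more in each library, and inside them the log2 ratio between libraries ranged from 0.48 to 2.67 for Selenop, 0.44 to 2.11 for Hs3st3b1, -0.17 to 2.14 for Gramd3, -0.11 to 1.59 for Tbc1d4 and 0.51 to 1.5 for Asap1. The genes were chosen on the sum over these same cells, and the gates overlap, so these values describe where the difference lay and support nothing. Intervals included 0 in the Tfh and cytotoxic gates for Selenop, Hs3st3b1 and Gramd3, and in the Ikzf2, Gzmb (0.27) and Trdc (0.14) gates for Tbc1d4. The values below 0 were Gramd3 in the cytotoxic gate (131 CPM in LatY136F, 117 CPM in CD45-KO, log2 ratio -0.17, interval -0.72 to 0.39) and Tbc1d4 in the Ikzf2 gate (543 and 505 CPM, log2 ratio -0.11, interval -0.23 to 0.01). In both cases this was among the gates where the gene was highest.

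The next question was whether the same cells carry the 5 transcripts. The number of cells with a UMI of both genes of a pair was set against the number expected if they were independent among cells of like depth, using 20 depth bins. Summed over the 10 pairs, 1637 co-detections were observed against 1428 expected in LatY136F (ratio 1.15, 1.09 to 1.20) and 5545 against 5310 in CD45-KO (1.04, 1.02 to 1.07). The members therefore co-occurred slightly more often than independent genes in both libraries, and the difference between the ratios of the libraries was not tested. A cell enters this sum once for each pair it holds, so the intervals are narrower than independent counts would give.

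Within LatY136F, 1 of 10 pairs reached 1.5 times the expected number. This was Selenop with Tbc1d4, found in 83 cells against 52.9 expected (1.57, 1.25 to 1.95), and at 1.45 (1.10 to 1.88) among cells with at most 10% mitochondrial counts. Of all 7863 other genes, 0.865% reached that ratio with Selenop, 0.0127% with Hs3st3b1, 0.776% with Gramd3, 0.738% with Tbc1d4 and 0.0636% with Asap1. Of the Selenop-positive cells 19.2% had a Tbc1d4 UMI, against 11.6% of the Selenop-negative cells. In CD45-KO the same pair stood at 1.08 (0.96 to 1.20), with 24.1% and 20.9%, and the difference between the libraries was not tested.

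The pairs among Gramd3, Tbc1d4 and Asap1 were the other 3 in LatY136F with an interval above 1. In LatY136F, Gramd3 with Tbc1d4 stood at 1.46 (1.19 to 1.77), Gramd3 with Asap1 at 1.38 (1.15 to 1.64) and Tbc1d4 with Asap1 at 1.34 (1.21 to 1.49). In CD45-KO the same pairs stood at 1.15 (1.02 to 1.28), 1.11 (0.999 to 1.23) and 1.10 (1.03 to 1.18). Each pair of these 3 genes was above 1 in both libraries, with an interval that reaches below 1 only for Gramd3 with Asap1 in CD45-KO. With the expectation also held within the pattern of the 6 state gates, the sum over all pairs was 1.09 (1.04 to 1.14) in LatY136F and 1.06 (1.03 to 1.08) in CD45-KO. Tbc1d4 with Asap1 then stood at 1.16 (1.05 to 1.29) and 1.06 (0.986 to 1.13), Gramd3 with Tbc1d4 at 1.14 (0.930 to 1.39) and 1.14 (1.01 to 1.27), Gramd3 with Asap1 at 1.25 (1.04 to 1.48) and 1.10 (0.990 to 1.22), and Selenop with Tbc1d4 at 1.38 (1.10 to 1.71) and 1.10 (0.988 to 1.23). The intervals of Gramd3 with Tbc1d4 in LatY136F and of Tbc1d4 with Asap1 in CD45-KO thus came to include 1.

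Selenop and Hs3st3b1, the pair that names the group, were found together close to the expected number of times. They were found together in 87 LatY136F cells against 77.3 expected (1.13, 0.90 to 1.39) and at 1.07 (0.98 to 1.16) in CD45-KO. Of Selenop-positive CD45-KO cells 39.1% had Hs3st3b1, against 35.5% of Selenop-negative cells. Selenop with Asap1 stood at 1.16 (0.92 to 1.44) in LatY136F and 0.97 (0.87 to 1.07) in CD45-KO, and Selenop with Gramd3 at 1.04 (0.63 to 1.63) and 0.94 (0.79 to 1.12), all with intervals that include 1. Hs3st3b1 stood within 0.05 of 1 with Tbc1d4 and Asap1 in both libraries. With Gramd3 it was below expectation in LatY136F (0.78, 0.62 to 0.98) and at 1.04 (0.95 to 1.14) in CD45-KO.

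In CD45-KO, 0 of 10 pairs reached 1.5, against 0.0254% of genes for Selenop, 0.00% for Hs3st3b1, 0.191% for Gramd3, 0.343% for Tbc1d4 and 0.0127% for Asap1. Pearson correlations between the UMI counts of 2 members over single cells lay between -0.04 and 0.07 in both libraries, over 13711 and 12730 cells that share a library and differ in depth. With counts this sparse such values are given as a description only.

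**Figure D2:**
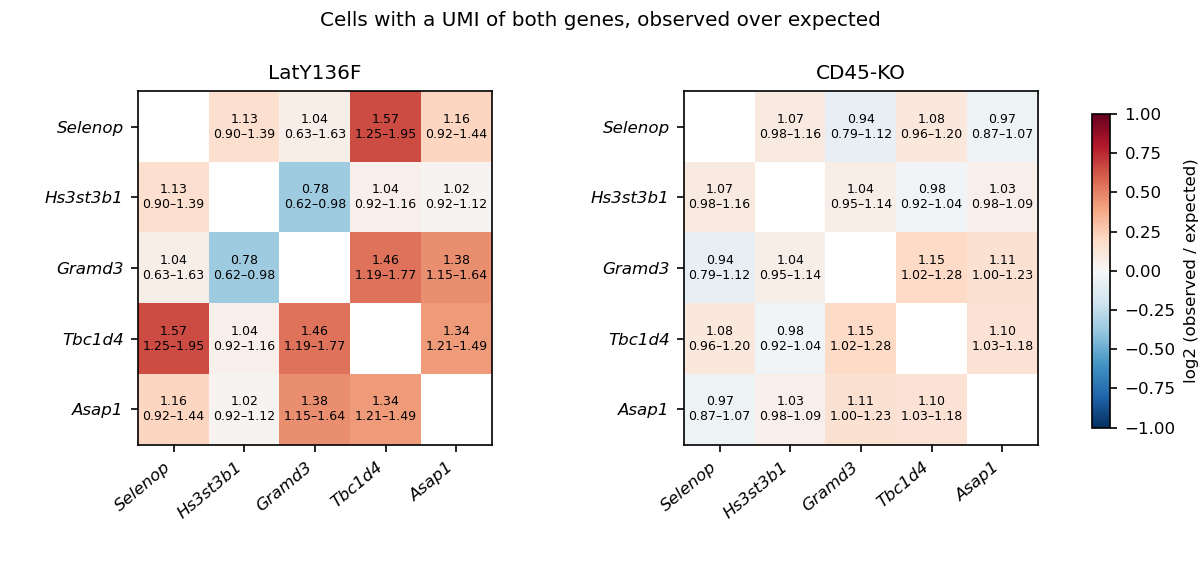
Observed over expected number of cells with a UMI of both genes, for the 10 pairs in LatY136F (left) and CD45-KO (right), with the 95% counting interval in each cell of the grid and the colour on a log2 scale. The pairs among Gramd3, Tbc1d4 and Asap1 and the pair of Selenop and Tbc1d4 stand out in LatY136F, and in CD45-KO all pairs lie between 0.94 and 1.15.

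Counting members per cell gave the same picture. In LatY136F, 7994 cells had a UMI of no member, 4430 of 1, 1127 of 2, 150 of 3, 10 of 4 and 0 of all 5. In CD45-KO the numbers were 4134, 5118, 2613, 758, 103 and 4. Most of this pattern was what independent genes of the same abundance and depth gave: 7839, 4692, 1065, 111, 5.04 and 0.08 cells in LatY136F, and 4020, 5241, 2692, 686, 86.1 and 4.29 in CD45-KO. Cells with 3 members exceeded expectation 1.35-fold (1.14 to 1.59) in LatY136F and 1.10-fold (1.03 to 1.19) in CD45-KO, and cells with exactly 1 member were fewer than expected in LatY136F (0.94, 0.92 to 0.97). Cells with more members were deeper, from a median of 2056 UMIs with none to 3890 with 4 in LatY136F.

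**Figure D3:**
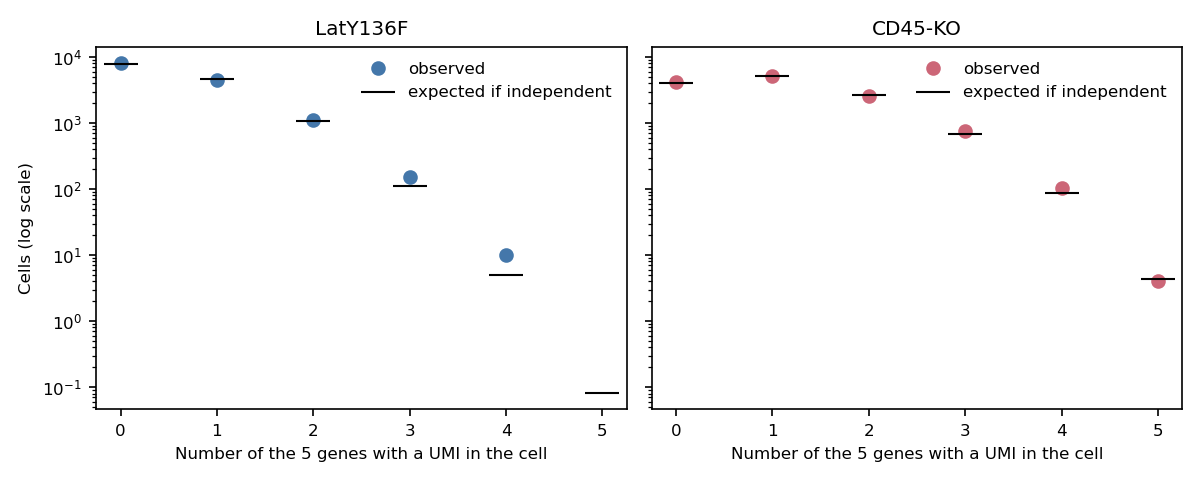
Number of T cells (log scale) by how many of the 5 genes had a UMI in the cell, in LatY136F (left) and CD45-KO (right). Dots are observed cells and black lines are the numbers expected from independent genes at matched depth. Observed and expected lie close together, the widest gap with over 100 cells being at 3 genes in LatY136F (150 against 111), and no LatY136F cell had all 5.

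Each gene had its own distribution over the gates. A gate is named here for a gene when the level inside it was at least 1.5-fold above or below that of the other T cells in both libraries. Of 110 member and gate values, 9 were higher and 13 lower by this rule, against 2.04% and 2.44% of all gene and gate values. The choice of the genes and gates bears on these counts, which are given as a description. The percent of genes given beside a gate is the share of all 7864 genes that met the rule there in the same direction.

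Tbc1d4 had the strongest pattern, in the Tfh gate (2 or more of Cxcr5, Bcl6, Il21, Sostdc1 and Pdcd1). It stood at 1106 CPM in 208 Tfh-gated LatY136F cells against 61.0 CPM in the others (18.1-fold, 16.8 to 19.5), and at 1591 against 127 CPM in CD45-KO (12.6-fold, 11.9 to 13.3). Of Tfh-gated cells 81.2% and 91.3% had a Tbc1d4 UMI. In this gate 7.68% of all genes were at least 1.5-fold higher in both libraries. Tfh-gated cells were deeper than the rest, with medians of 3663 and 3488 UMIs.

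The same association can be read in the other direction, which adds no separate support. Depth was not matched here. From cells with no Tbc1d4 UMI to those with 5 or more, median depth went from 2126 to 3895 UMIs in LatY136F. In CD45-KO it went from 1944 to 3767 UMIs, and the part of depth was not tested. Among LatY136F cells with no Tbc1d4 UMI 0.323% were Tfh-gated, with 1 UMI 1.79%, with 2 to 4 UMIs 14.4%, and with 5 or more 74.0% (94 of 127). In CD45-KO the shares were 0.249%, 1.48%, 10.5% and 78.7% (166 of 211). Cells rich in Tbc1d4 were thus mostly Tfh-gated in both libraries, and 34.1% and 35.1% of all Tbc1d4 UMIs came from 1.52% and 2.26% of the cells.

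**Figure D4:**
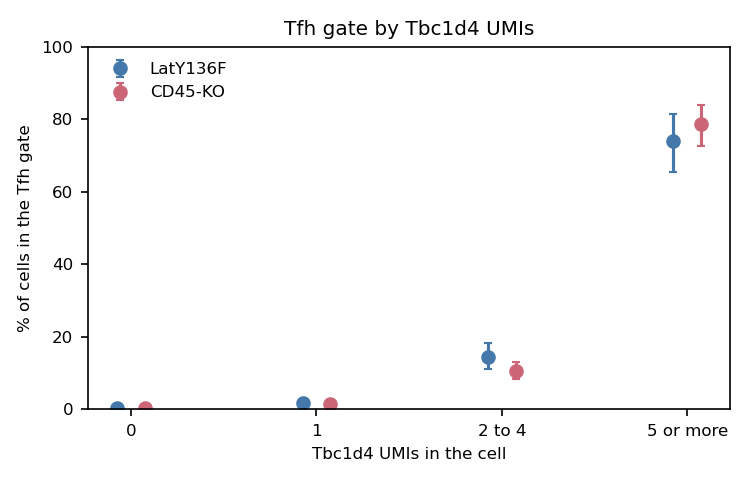
Percent of T cells inside the Tfh gate by the number of Tbc1d4 UMIs in the cell, for LatY136F (blue) and CD45-KO (red), with 95% exact binomial intervals. The share is below 2% at 0 or 1 UMI and reaches 74.0% and 78.7% at 5 or more UMIs. Cells were not matched for depth.

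Tbc1d4 was also higher in the gates on Ikzf2 without Foxp3 (7.88-fold in LatY136F and 3.48-fold in CD45-KO, 2.10% of genes), on Il4 (3.53 and 4.05-fold, 1.84%) and on Tcf7 (2.70 and 1.74-fold, 0.305%) and in the cytotoxic gate (4.10 and 2.63-fold, 2.89%). Ikzf2 encodes Helios and Tcf7 encodes TCF1, transcription factors of T cells, and Il4 is the cytokine gene of Th2 and Tfh cells. Parts of these gates were the same Tfh-gated cells. With those left out, the ratios fell to 3.04 and 1.35 for Ikzf2, 1.17 and 1.19 for Il4 and 1.91 and 1.28 for Tcf7, and were 4.33 and 1.82 for the cytotoxic gate. Outside the Tfh gate the Il4 gate therefore no longer passed 1.5-fold in either library, and of these 4 gates only the cytotoxic gate still did in both.

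Tbc1d4 was lower in cells with Il1rl1 (0.46 and 0.47 of the level in other cells, 0.712% of genes lower), which encodes the IL-33 receptor ST2 found on Th2 effector cells. It was lower too in cells with Gzmb (0.54 and 0.33, 0.254%), the granzyme B gene. Without the Tfh-gated cells, the Il1rl1 ratio was 0.72 and 0.77. The level in the Il1rl1 gate, which held 7814 LatY136F and 7744 CD45-KO cells, was 59.7 and 131 CPM.

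Asap1 was highest in the same gate as Tbc1d4, at smaller ratios. In the Tfh gate it stood at 171 against 75.9 CPM in LatY136F (2.25-fold, 1.92 to 2.64) and at 312 against 155 CPM in CD45-KO (2.01-fold, 1.80 to 2.24), where 7.68% of genes were higher. In the cytotoxic gate it was 1.61-fold (1.17 to 2.16) and 1.62-fold (1.37 to 1.89) higher (2.89% of genes), and in the Gzmb gate it was at 0.64 of the other cells in both libraries (0.254% of genes). Without the Tfh-gated cells, the cytotoxic ratios were 1.43 and 1.32, below 1.5-fold.

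The cytotoxic gate asked for 2 or more genes such as Nkg7, Ccl5, Klrd1 and Eomes. Among the gates with at least 100 cells in both libraries, Gramd3 was highest there. It stood at 131 against 17.6 CPM in LatY136F (7.46-fold, 5.43 to 10.1) and at 117 against 50.1 CPM in CD45-KO (2.33-fold, 1.81 to 2.95), where 2.89% of genes were higher. Both values rest on few cells (107 and 177), of which 29.9% and 26.0% had a Gramd3 UMI. Because the level inside the gate was alike in both libraries and that outside was not, the fold over other cells was smaller in CD45-KO. Cells with Cd8a or Cd8b1 and without Cd4 were also higher in Gramd3 (6.20-fold, 2.82 to 11.8, and 3.17-fold, 1.77 to 5.24, where 4.87% of genes were higher), from 9 and 15 UMIs in 23 and 25 cells. Gramd3 was lower in the cycling gate (0.52 and 0.64, 13.4% of genes), with Il2ra without Foxp3 (0.42 and 0.48, 3.59%) and with Il6 (0.63 and 0.63, where 0.343% of genes were lower). With 2 or more Il6 UMIs asked for, the CD45-KO ratio in the Il6 gate was 1.499 (0.49 to 3.51). Il2ra encodes the high-affinity chain of the interleukin 2 receptor and Il6 the cytokine interleukin 6.

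Hs3st3b1 was low in the Tfh gate, where Tbc1d4 was highest. In that gate it stood at 31.8 against 91.1 CPM in LatY136F (0.35, 0.24 to 0.50) and at 44.0 against 244 CPM in CD45-KO (0.18, 0.14 to 0.24), where 8.46% of all genes were lower in both libraries. In the cycling gate it stood at 25.3 against 104 CPM (0.24, 0.21 to 0.28) and 59.9 against 248 CPM (0.24, 0.20 to 0.29), where 13.4% of genes were lower. It was lower too in the gates on Il2ra (0.32 and 0.56, 3.59%), interferon-induced genes (0.56 and 0.58, 0.750%) and Il4 (0.65 and 0.62, 0.572%). Over 9 settings of the cells and gates, the ratio rose to at most 0.874 for interferon-induced genes in LatY136F. With Il2ra it rose to at most 0.815 in CD45-KO. Neither of these values is 1.5-fold lower. With cells thinned to 1000 UMIs the Il4 ratio in LatY136F was 1.16 (0.82 to 1.60). Without the Tfh-gated cells the Il4 ratios of Hs3st3b1 were 0.742 and 0.766, no longer 1.5-fold lower in either library. The Il1rl1 gate was the only gate of 22 in which its ratio was above 1 with its interval in both libraries, at 1.27 (1.18 to 1.37) and 1.19 (1.14 to 1.26). With intervals excluding 1 in both libraries, Hs3st3b1 and Tbc1d4 ran in opposite directions in the Tfh, Il4, Ikzf2, Il1rl1 and Cd4 without Cd8 gates. By the same criterion both were below the other cells in the activated, Il2ra, Gzmb, Il6 and Itga4 gates. With Gzmb, Hs3st3b1 stood at 0.70 and 0.70 and Tbc1d4 at 0.54 and 0.33. Without the Tfh-gated cells, the Tbc1d4 ratios were 0.962 and 1.04 in the Cd4 without Cd8 gate and 0.966 and 0.996 in the Itga4 gate. In LatY136F they were 1.17 (0.998 to 1.37) with Il4 and 0.952 (0.807 to 1.12) with Il6. The intervals of these values include 1, so outside the Tfh gate these gates no longer met that criterion.

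Selenop was not marked by any gate at 1.5-fold or more in both libraries. It was lower in the cycling gate (6.14 against 18.3 CPM, 0.33, in LatY136F and 15.9 against 68.8 CPM, 0.23, in CD45-KO, with 13.4% of genes lower) and in the Ikzf2 gate (0.55 and 0.54, where 0.801% of genes were lower). In the Il1rl1 gate its ratio was 1.07 (0.91 to 1.27) in LatY136F and 1.34 (1.21 to 1.48) in CD45-KO. In the Tfh gate it stood at 1.22 (0.73 to 1.92) from 19 UMIs in LatY136F and at 0.44 (0.31 to 0.62) from 35 UMIs in CD45-KO, and this difference between the libraries was not tested. From LatY136F to CD45-KO its level went from 12.6 to 52.2 CPM in the activated, 17.4 to 58.3 CPM in the naive-like and 8.96 to 37.2 CPM in the Ikzf2 gate. In the Tfh gate it went from 19.5 to 29.6 CPM (log2 ratio 0.61, -0.24 to 1.49) and in the cytotoxic gate from 14.0 to 19.4 CPM (0.48, -1.13 to 2.33).

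**Figure D5:**
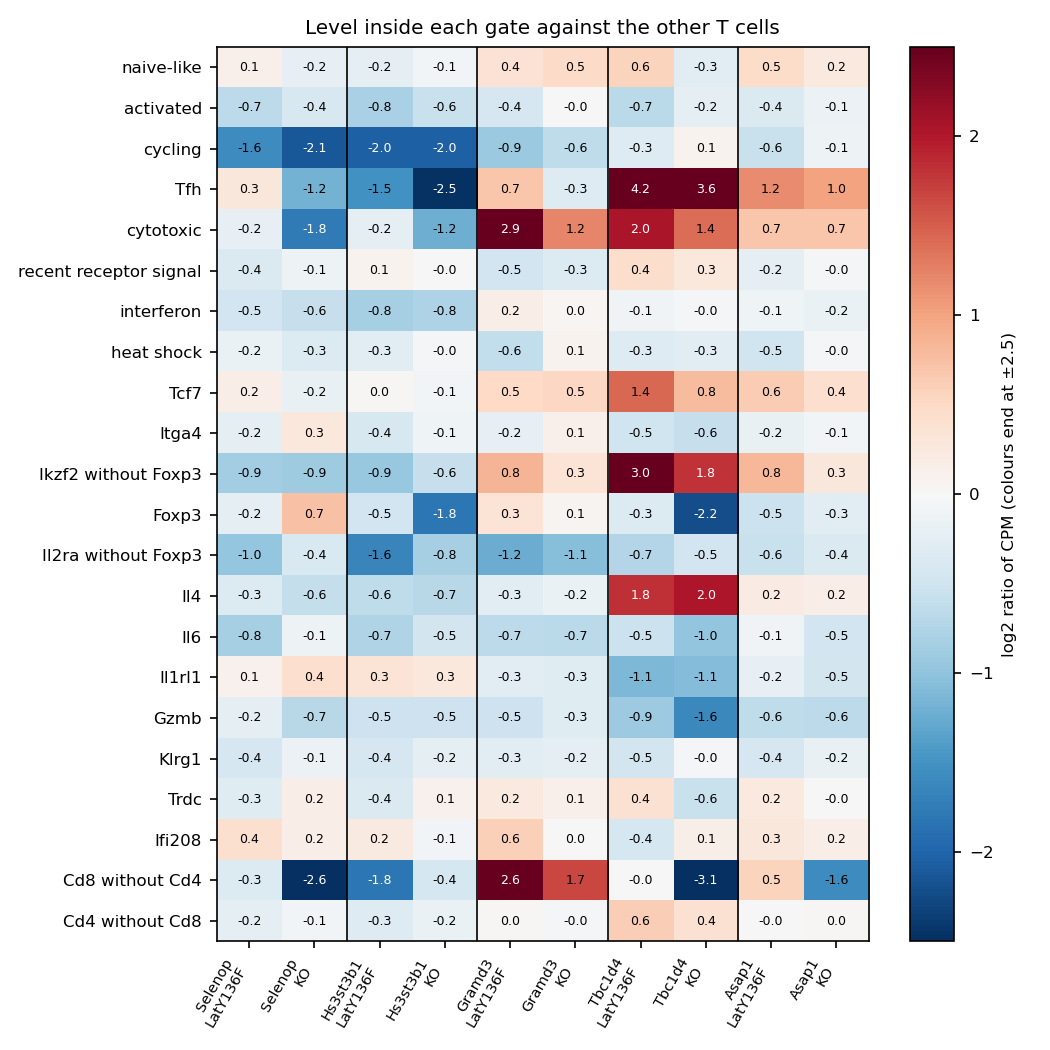
Log2 ratio of the level inside each of 22 gates (rows) to that of the other T cells, for each of the 5 genes in LatY136F and CD45-KO (KO) columns; red is higher inside the gate, blue lower, and colours end at 2.5. Tbc1d4 is highest in the Tfh row (18.1 and 12.6-fold), Gramd3 in the cytotoxic row in LatY136F (7.46-fold), and Hs3st3b1 and Selenop are low in the cycling row; rows with few cells, such as Foxp3 (99 and 29) and Cd8 without Cd4 (23 and 25), are imprecise.

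Depth moved with some of these values. Split into equal terciles by UMI total, LatY136F cells had 136, 113 and 60.6 CPM of Hs3st3b1 from the shallowest to the deepest, and CD45-KO cells had 293, 263 and 195 CPM. Selenop and Gramd3 also had their lowest CPM in the deepest tercile of both libraries (10.99 and 15.3 CPM in LatY136F, 52.7 and 46.0 CPM in CD45-KO), whereas Tbc1d4 had its highest there (98.9 and 234 CPM). Cycling cells were the deepest of the gates given here, with medians of 4911.5 and 5497 UMIs. The part of depth in the low cycling values of Hs3st3b1, Selenop and Gramd3 was not tested.

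The percent of mitochondrial counts moved with the levels too, and its median was 8.59% in LatY136F and 9.42% in CD45-KO cells. From the lowest to the highest tercile of that percent, LatY136F cells went from 12.5 to 19.6 CPM of Selenop, 72.3 to 110 of Hs3st3b1, 17.1 to 20.7 of Gramd3, 84.6 to 105 of Tbc1d4 and 68.0 to 95.3 of Asap1. In CD45-KO, Tbc1d4 went from 211 to 159 CPM and Asap1 from 176 to 148 CPM, whereas Hs3st3b1 went from 211 to 247, Selenop from 58.6 to 63.8 and Gramd3 from 47.7 to 55.5 CPM. Tbc1d4 and Asap1 thus ran in opposite directions in the 2 libraries. The middle tercile did not always lie between the others, with 73.7 CPM of Selenop and 249 of Hs3st3b1 in CD45-KO and 82.7 of Tbc1d4 in LatY136F. Intervals of the lowest and highest terciles overlapped for Selenop in CD45-KO and for Gramd3 in both libraries. Among cells with at most 10% mitochondrial counts, the log2 ratio between libraries was 2.06 for Selenop, 1.44 for Hs3st3b1, 1.28 for Tbc1d4 and 1.18 for Asap1.

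The genes found most often in the same cells were then listed for each member, from 5918 genes with at least 20 CPM in both libraries. For Tbc1d4 they were Sostdc1 (observed over expected 4.83 in LatY136F and 2.97 in CD45-KO), Pdcd1 (2.34 and 2.21), Rgs10 (2.56 and 2.10), Nrgn (2.01 and 2.13) and Akr1c18 (2.65 and 2.05). Sostdc1 and Pdcd1, the latter encoding the receptor PD-1, also define the Tfh gate. For Asap1 they were Sostdc1 (1.95 and 1.49), Cd200 (1.36 and 1.32), Izumo1r (1.24 and 1.18), Rgs10 (1.43 and 1.30) and Pdcd1 (1.27 and 1.35), 3 of them shared with Tbc1d4. The lowest were Gzmb (0.71 and 0.53), Ccr1 (0.51 and 0.68) and Ndrg1 (0.66 and 0.76) for Tbc1d4, and Gzmb (0.79 and 0.73), Nhsl2 (0.73 and 0.78) and Ccr1 (0.65 and 0.80) for Asap1.

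For Gramd3 the list was led by genes of cytotoxic lymphocytes, Nkg7 (2.33 and 1.92) and Eomes (2.13 and 1.54), followed by the chemokine receptor Cxcr6 (1.35 and 1.34), the inhibitory receptor Btla (1.76 and 1.34) and Tcf7 (1.31 and 1.19). Nkg7 and Eomes also define the cytotoxic gate, so they add no separate support to the level of Gramd3 there. The lowest for Gramd3 were Ccr1 (0.57 and 0.43), Ndrg1 (0.58 and 0.71) and Csf1 (0.82 and 0.83). Btla was among the 20 highest for 3 members, Gramd3, Tbc1d4 (2.60 and 1.895) and Asap1 (1.5 and 1.19). It was among the lowest for Hs3st3b1, at 0.68 and 0.66.

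Hs3st3b1 had only weakly raised partners: Pdzk1 (1.30 and 1.18), Id3 (1.27 and 1.14), Itgae (1.16 and 1.13), Swap70 (1.19 and 1.12) and Egr3 (1.25 and 1.12). Id3 and Egr3 encode transcription regulators that T cell receptor signals induce. The lowest partners of Hs3st3b1 were Sostdc1 (0.50 and 0.38), Btla and Cd200 (0.67 and 0.68), genes at the top of the Tbc1d4 or Asap1 lists. Partners of Selenop were also weak: Ms4a4b (1.16 and 1.06), Ifi213 (1.38 and 1.13), Herc3 (1.28 and 1.16) and Selenot (1.12 and 1.07), each with an interval that includes 1 in at least 1 library. The lowest for Selenop were Sdr39u1 (0.72 and 0.81), Hmgn1 (0.79 and 0.77) and F2r (0.86 and 0.89).

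Other genes of the members' pathways were counted in the same way. Over all 12743 genes with at least 20 UMIs, 8.35% were at least 1.5-fold higher and 8.98% lower in CD45-KO, with a median log2 ratio of 0.03. Of 27 other selenoprotein and selenium genes measured, 2 were higher and 2 lower, with a median of -0.02. Selenow stood at 858 and 553 CPM (log2 ratio -0.64), Selenoh at 70.7 and 45.8 CPM (-0.63), and Gpx4, the lipid peroxide reductase, had a log2 ratio of 0.35. The 2 higher ones, named after their values were seen, were Dio2, a deiodinase that activates thyroid hormone, at 2.85 and 7.14 CPM (1.32, 0.97 to 1.68), and Txnrd3, a thioredoxin reductase, at 1.94 and 3.25 CPM (0.75, 0.28 to 1.22). The 2 of 27 in each direction are close to the shares over all genes.

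Of 23 other genes of heparan sulfate synthesis and its carriers, 2 were higher and 2 lower, with a median log2 ratio of 0.05. The well-measured chain enzymes differed little, with -0.29 for Extl3, -0.27 for Ndst1 and -0.20 for B4galt7. Hs3st3a1, named after its values were seen, is the close paralog of Hs3st3b1 and makes the same kind of sulfate. It was at 17 UMIs (0.48 CPM) in LatY136F and 104 UMIs (3.64 CPM) in CD45-KO, a log2 ratio of 2.91 (2.16 to 3.74). Reads between such near-identical copies can be assigned to the wrong gene, and how the authors' counting treated them was not stated in the sources used here. Of the 97 CD45-KO cells with Hs3st3a1, 41 also had Hs3st3b1, at 1.13 times the expected number (0.81 to 1.53).

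Of 15 other GRAM domain genes, 1 was higher and 0 lower, with a median log2 ratio of 0.20 and values of 0.36 for Gramd1a, 0.26 for Tbc1d8b and -0.25 for Gramd4. Of 34 other TBC domain, Rab and glucose transporter genes, 2 were higher and 1 lower, with a median of 0.06. The largest differences among those with at least 20 CPM in 1 library or both were 0.53 for Rabgap1l, 0.38 for Tbc1d5 and -0.32 for Tbc1d22b. Of 26 other Arf GAP and Arf genes, 2 were higher and 1 lower, with a median of 0.00 and values of -0.35 for Arf6, -0.24 for Smap2 and 0.23 for Agap2.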

How the data were processed

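Each genotype has 1 deposited table of UMI counts, with cells as rows and genes as columns. Per the file headers, the authors made these counts with the BD WTA Multiplex Rhapsody Analysis Pipeline 1.9.1 on GRCm38 with GENCODE M19, after recursive error correction of molecules. Other pipeline and software versions stand in the design text (2.0, with Seurat 4.04), and GRCm39 is the build of the submitters' processing notes; the headers were followed. No map from cells to sample tags was used.

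A cell was kept if it had 200 genes or more and no more than 25% mitochondrial counts, which removed 28 and 11. Cells with 3 or more UMIs over a list of B, myeloid and dendritic markers were set aside as not T cells. Doublets were not called, and no clusters were made. Gates used the UMIs of each cell. Levels are CPM of summed UMIs, ratios have exact binomial intervals, and co-detection has exact Poisson intervals (95%, counting error only). Samples were grouped by the genotype label.

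The members and all lists and gates were chosen with earlier results of these data known. Named genes are the members, the 5 most and 3 least co-detected genes of each (1 of them is not reported here), genes among the 20 highest of 3 members, up to 3 genes per related list with at least 20 CPM in 1 library, and Fosb. The co-detection lists and the ranking by lower bound leave out receptor segments, unnamed and sex-linked genes, and genes of mitochondria, ribosomes and haemoglobin. Ratios and intervals were tested on simulated data, with independent Poisson counts at the real depths and a cell state known without error. Pairs of sparse genes were not simulated. The simulation cannot show how the values behave for gates called from sparse UMIs or for genes concentrated in few cells, such as Tbc1d4. Alternatives changed the cell filter, scaling, depth bins, thinning and gates. Tools were python 3.11.15, numpy 2.4.6, scipy 1.17.1, matplotlib 3.10.9, R 4.3.3 and edgeR 4.0.16 (scaling factors only). Gene positions are from GENCODE M21 and promoters from RefSeq.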

Additional observations from a re-analysis of the deposited data

Results flagged for a closer look

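Tbc1d4 lay on opposite sides of the other T cells in the 2 libraries for 3 gates, with intervals that exclude 1 in both. In the naive-like gate its ratio to the other T cells was 1.47 in LatY136F (125 against 84.9 CPM) and 0.833 in CD45-KO (162 against 195 CPM). In the Trdc gate, cells with a UMI of the gamma-delta receptor gene Trdc, it was 1.31 in LatY136F and 0.680 in CD45-KO, from 195 and 68 UMIs. In the Ifi208 gate it was 0.741 in LatY136F and 1.11 in CD45-KO. With 1 library per genotype, none of these 3 differences was tested. Without the Tfh-gated cells, the naive-like ratios were 1.44 and 0.831, but the Trdc ratios were 0.922 (0.738 to 1.14) and 0.699 (0.511 to 0.934) and the Ifi208 ratios 1.14 (0.907 to 1.41) and 1.03 (0.949 to 1.12), no longer on opposite sides. With stricter gates the naive-like ratio in LatY136F was 0.868, and at 1000 UMIs per cell the LatY136F ratios were 1.01 with Trdc and 1.23 with Ifi208.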

How the results depend on the processing

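Under 13 settings of the cells, scaling, weighting and filter on level, the log2 ratio between libraries ranged from 1.87 to 2.06 for Selenop, 1.18 to 1.44 for Hs3st3b1, 1.22 to 1.5 for Gramd3, 0.83 to 1.18 for Asap1 and 0.50 to 1.28 for Tbc1d4. The main setting is 1 of the 13, and the filters on level cannot move these ratios. The lowest values came from holding the mix of states equal, chosen after seeing the data. Both other scalings (TMM and median of ratios) moved every log2 ratio by -0.046 and -0.046. The genes at least 1.5-fold higher and lower (131 and 252) numbered 2468 and 2543 with no filter on level, which adds genes with few UMIs, and 63 and 133 at 50 CPM or more in 1 library. Pairs at 1.5 or more in LatY136F (main 1) numbered 0 with at most 10% mitochondrial counts, 3 without depth bins, 3 at 1000 UMIs per cell and 0 with depth bins and state pattern. The sum over pairs was 1.23 at 1000 UMIs and 1.09 with the state pattern in LatY136F (main 1.15), and 1.10 without depth bins in CD45-KO (main 1.04). With stricter gates, 24 instead of 13 member and gate values were lower in both libraries. Of the gate ratios at least 1.5-fold from 1, those that changed side, with intervals that include 1 wherever an interval was computed, were in LatY136F at 1000 UMIs Gramd3 in the Tfh (0.561) and heat shock (2.66) gates, Tbc1d4 with Il2ra (1.18) and Hs3st3b1 with Il4 (1.16), with cells weighted equally Gramd3 in heat shock (1.13), and in CD45-KO with stricter gates Selenop with Foxp3 (0.443) and Gramd3 with Il6 (1.499). Ratios nearer to 1 crossed it too, among them Tbc1d4 in LatY136F in the naive-like (0.868, stricter gates) and Ifi208 (1.23, 1000 UMIs) gates, and Selenop in the cytotoxic gate of LatY136F (1.79, stricter gates) and the naive-like gate of CD45-KO (1.08, 1000 UMIs). The cause was not tested. No paired analysis was possible because each genotype has 1 library, and for the same reason no replicate could be left out.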
